A study of Mus musculus with 12 samples.

Results

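Snhg14 is a long non-coding RNA gene of mouse chromosome 7 (chr7:59307924-59975759, minus strand, mm10, ENSMUSG00000100826.6 in GENCODE M21). A deposited list of 4762 PAR-CLIP clusters, stretches of the genome on which sequenced reads piled up, held 18 clusters with their midpoint inside this 668 kb span, on either strand. Snhg14 was chosen by its number of clusters in the same list, so that number is a description and no test was made on it. The 18 clusters came from only 3 sequences, called P, Q and R here, each listed at 2 or more places in the repeat arrays of the gene. Q lay on the strand of Snhg14 at 14 places, and P and R lay on the opposite strand at 2 places each.

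The series had 12 libraries from female C57BL/6 neural stem cell lines, derived at stage E14.5 and split into 3 groups of 4. The first group carried Smchd1GFP/GFP, a GFP tag on both copies of the chromatin protein Smchd1, and was crosslinked with light at 365 nm (0.15 J/cm2) after 24 hours in 100 µM 4-thiouridine. The second, also Smchd1GFP/GFP, was not crosslinked per its titles, although its treatment protocol states irradiation, and the third was Smchd1+/+, untagged and crosslinked. The list names no library, so neither control could be set against the tagged cells and no value below has a replicate error. The cluster list is no measure of expression. Of 15 neural stem cell markers, 2 had a cluster on their strand (Msi2 and Slc1a3). So did 1 of 7 neuron markers (Gap43) and 1 of 4 markers of other cells (Col3a1). Another neuron marker, Map2, had 2 clusters, both on the opposite strand. The share of all genes with a cluster on their strand was not counted, so these counts cannot be called low or high.

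Snhg14 is transcribed from the paternal chromosome, starting near Snrpn and running towards Ube3a, whose 3′ end it meets on the opposite strand. In neurons the long transcript is known to keep the paternal copy of Ube3a silent. Its introns carry small nucleolar RNAs (snoRNAs) of the C/D box class, which as a class guide methylation of other RNAs. They come in large tandem arrays, Snord115 nearer to Ube3a and Snord116 nearer to Snrpn. Loss of the paternal SNORD116 genes is linked to Prader-Willi syndrome in humans, and loss of maternal UBE3A to Angelman syndrome. Smchd1 is known to take part in silencing on the inactive X and at some imprinted clusters, among them that of Snrpn.

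The list gave the following sequences for the 18 clusters, shown because every result below turns on them. They are written 5′ to 3′ on the strand of the cluster, with the first 2 bases in capitals, since most clusters of the list began in the same way.
P, first place chr7:59493464-59493549, plus strand: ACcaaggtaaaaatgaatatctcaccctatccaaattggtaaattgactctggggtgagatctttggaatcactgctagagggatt
Q, first place chr7:59552608-59552691, minus strand: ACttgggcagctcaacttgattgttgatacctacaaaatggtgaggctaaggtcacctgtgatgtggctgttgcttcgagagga
R, first place chr7:59787430-59787513, plus strand: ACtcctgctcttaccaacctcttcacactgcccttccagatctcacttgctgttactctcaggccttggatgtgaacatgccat

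All 3 began with AC, as did 78.9% of the clusters in the list. P was 86 bases long and Q and R were 84, close to the median of 85 for the list. None of the 3 held the word GTAC, which 0.693% of listed clusters held. Their base composition differed: R had 35.7% C and 14.3% G, Q had 17.9% C and 29.8% G, and P had 32.6% A and 27.9% T. The GC content was 39.5% for P, 47.6% for Q and 50% for R, against a median of 41.7% for the list. The list holds reference sequence: each of 223 clusters compared with an annotated exon on its own strand was identical to it. T-to-C changes, the mark of crosslinked 4-thiouridine, are therefore not visible in it.

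Position was read against the snoRNA genes. GENCODE annotates 208 of them inside Snhg14, all on its strand, and by shared sequence they form a group of 137 (Snord115-type, chr7:59342226-59619095) and one of 71 (Snord116-type, chr7:59673461-59923122). Neighbouring genes of the first group start a median of 1871 bases apart and those of the second 2527.5 bases. For comparison with the clusters, the gene next to the first copy of Q and the one next to the second copy of R are given with the C box (ATGATGA) and the D box (CTGA) in capitals, the short motifs that define this class of snoRNA.
Gm25585, Snord115-type, chr7:59552109-59552187, minus strand: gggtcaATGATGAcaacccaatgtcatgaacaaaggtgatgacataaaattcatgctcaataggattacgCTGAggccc
Snord116l7, Snord116-type, chr7:59881989-59882082, minus strand: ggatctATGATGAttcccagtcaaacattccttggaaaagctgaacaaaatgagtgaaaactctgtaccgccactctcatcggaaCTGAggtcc

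The sequence of Gm25585 is shared by 23 genes of its array and that of Snord116l7 by 30. A C box word, ATGATGA or GTGATGA, occurred in 132 of 137 Snord115-type genes and 67 of 71 Snord116-type genes, against 23.2% of the 1507 snoRNA genes annotated in the mouse. P, Q and R held it on neither strand, where 2.33% of listed clusters did. The clusters were thus not on the snoRNAs: 0 of 208 snoRNA genes overlapped a cluster, and no cluster of the whole list shared a word of 16 bases with any of them on either strand. All 18 clusters lay between the snoRNA genes, within 1000 bases of the nearest one. That distance says little about the clusters. With Snord115-type genes a median of 1871 bases apart, any place in a regular unit lies within the limit. Most places between Snord116-type genes, 2527.5 bases apart, do so too.

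Within the repeat units the place of each sequence was fixed almost to the base. Identical copies in tandem units would lie so in any case, so the shared place describes the repeat and the copies are not separate observations. Q began 420 bases upstream of a Snord115-type gene at 13 of its 14 places and 419 bases at the other, counted between the near ends of gene and cluster. P lay 953 bases upstream of the gene at both of its places, in neighbouring units 1868 bases apart. R lay 518 bases upstream of a Snord116-type gene at both of its places, Gm22941 and Snord116l7, although these were 95171 bases apart. P and Q lie in the same kind of unit at different distances, so they are different parts of the Snord115 repeat and not copies of each other.

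**Figure D1:**
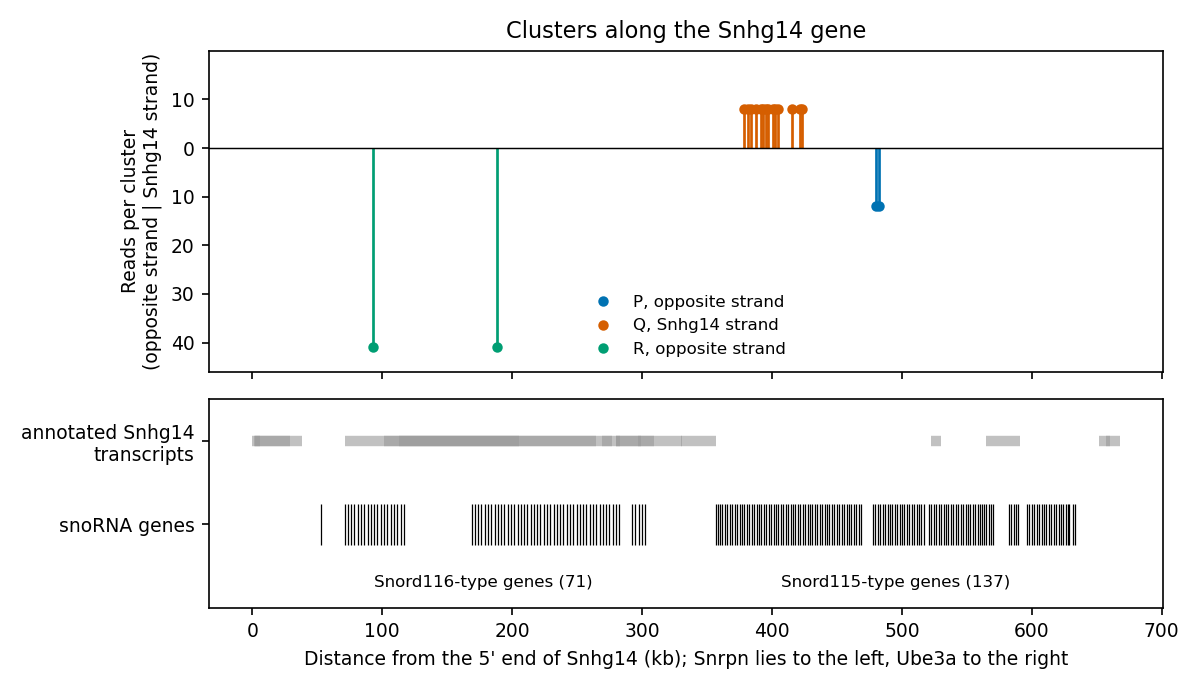
Reads per cluster (vertical axis, counts, up for the Snhg14 strand and down for the opposite strand) against distance from the 5′ end of Snhg14 in kb, with annotated transcripts (grey) and snoRNA genes (ticks) below. The 14 clusters of sequence Q with 8 reads each stand together in the Snord115-type array, those of P with 12 reads lie nearer to Ube3a, and the 2 of R with 41 reads lie in the Snord116-type array.

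Q filled a short part of its array. Counted from the Ube3a side, its copies lay in units 101 to 125 of 137, a stretch of 45.0 kb from chr7:59552608 to 59597617. Of these 25 units 14 held a listed copy and 11 did not, with runs of up to 4 units with a copy and up to 5 without. The distance from one copy to the next was 1870 to 1872 bases for 7 of the 13 steps and 3741 to 3746 bases for 4 of them. The remaining steps were of 5618 and 11236 bases, so every step came to a whole number of units of 1870 to 1873 bases. This too follows from the repeat, since the copies are identical. The 100 units on the Ube3a side of this stretch and the 12 on the Snrpn side had no copy of Q in the list.

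The snoRNA genes did not separate units with and without Q. Of the 14 units with a copy, 11 carried a snoRNA identical to Gm25585, and so did 8 of the 11 units without. The units with a copy had 3 distinct snoRNA sequences and those without had 4, of which 2 were found in both. P lay in units 73 and 74, which carry 1 identical snoRNA sequence. R lay in units 43 and 61 of the 71 Snord116-type genes. The sequence of the units without a listed copy, outside annotated transcripts, was not used here, so whether they hold Q with a base changed was not tested.

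The host RNA is spliced from exons that also repeat with the units. In the Snord115-type array 24 annotated exons fell at only 2 places in the unit, beginning 62 to 121 and 1503 to 1508 bases upstream of the snoRNA gene. Q at 419 to 503 bases and P at 953 to 1038 bases fell on none of them. In the Snord116-type array, exons of 147 bases began 254 to 256 bases upstream of the snoRNA gene, 13 times, and R began further upstream, at 518 bases. Clusters overlapped 0 of the 75 annotated exons of Snhg14. For the 16 clusters of P and Q this was fixed by the annotation, since no annotated transcript covers their stretch. Only the 2 clusters of R could have overlapped an exon. Sequence shared with the exons was not absent from the list. A word of 20 bases from a Snhg14 transcript, on either strand, occurred in 288 of its 4762 clusters. Of these 2, the copies of R, lay in the span and the rest elsewhere. Repeats found across the genome were not masked and no other gene was counted in this way, so 288 cannot be called few or many.

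**Figure D2:**
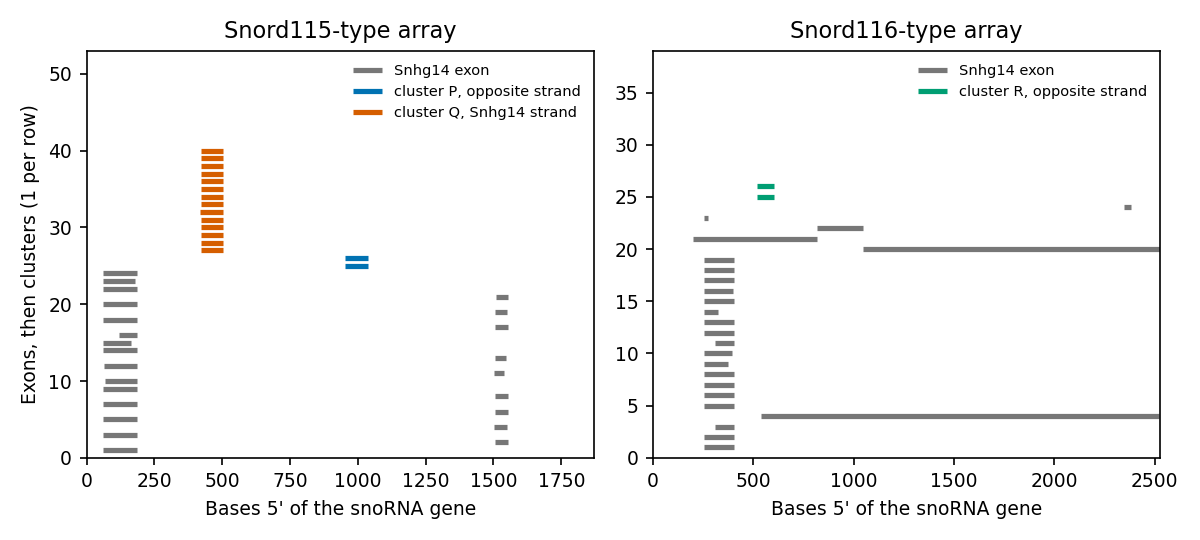
Each row is 1 annotated Snhg14 exon (grey) or 1 cluster (colour), placed by its distance in bases upstream of the nearest snoRNA gene on its 3′ side, for the Snord115-type array (left) and the Snord116-type array (right). Q stacks at 420 bases and P at 953, both clear of the exons, while R at 518 falls in the range of 2 long exons of other units.

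Calling the clusters intronic rests on the span of the gene. GENCODE M21 builds Snhg14 from 15 separate transcripts, and the 16 clusters of P and Q lay in a stretch of 166 kb (chr7:59453240-59619157, holding 84 snoRNA genes) that none of them covers. By position, the first copy of R lay in an intron of 3 transcripts (Snhg14-202, Snhg14-206 and Snhg14-207). The second lay in an intron of 1 of these, Snhg14-207. Both copies of R were on the opposite strand, so antisense to these introns.

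R had 1 more exact copy in the annotation, without a cluster. The exon of Snhg14-206 at chr7:59859507-59860126 holds all 84 bases of R, on the strand opposite to the cluster, at chr7:59859826-59859909. This copy also lies 518 bases upstream of a Snord116-type gene, Gm26433. On the cluster strand the 4 bases before this copy are CAAC. Of 478 clusters of the whole list that began with AC inside an exon of either strand, 74.9% had GT just before the start. The bases before the 2 listed copies of R were not used here, so the copies could not be compared on this point. Snhg14-214 shared 24 of the 65 words of 20 bases in R, and P and Q shared no word of 20 bases with any annotated transcript of the mouse.

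Reads were the same at every copy of a sequence, and below the median of the list for P and Q but not for R. Q had 8 reads at each of its 14 places, P had 12 at both and R had 41 at both. The list had a median of 14 reads per cluster, with quartiles of 10 and 25 and a range of 2 to 43217, so Q lay below the lower quartile, P between the lower quartile and the median, and R above the upper quartile. Of all clusters, 80.9% had more reads than Q, 58.3% more than P and 16.4% more than R. The sum over the 18 clusters was 218 reads, 112 for Q, 24 for P and 82 for R, or 0.0394% of the 553902 reads summed over the list. With each sequence counted once the sum was 61 reads, of which 8 were Q.

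Copies had equal reads in 59.2% of the 262 sequences listed more than once. The share was 73.7% of those with 2 copies, 57.3% of those with 3 to 9 and 27.8% of those with 10 or more, and the highest count over the lowest reached 6.4. The share also differed with where the copies lay. It was 89.4% of the 94 sequences with all copies on 1 chromosome and 42.3% of the 168 with copies on several. Of the sequences with 10 or more copies, 8 of the 10 on 1 chromosome had equal reads, Q among them, against 2 of the 26 on several. Of the 48 sequences with all copies within 1000 kb, P, Q and R included, 47 had equal reads. Equal counts were thus usual for few copies lying this close, as for P and R. After Q the most copies among the 48 were 6, on chromosome 9, and these had 6 to 12 reads. No sequence with as many close copies as Q was there to compare. Whether the same 8 reads were counted at each place of Q, or reads were shared out among the places, cannot be told apart from the list.

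**Figure D3:**
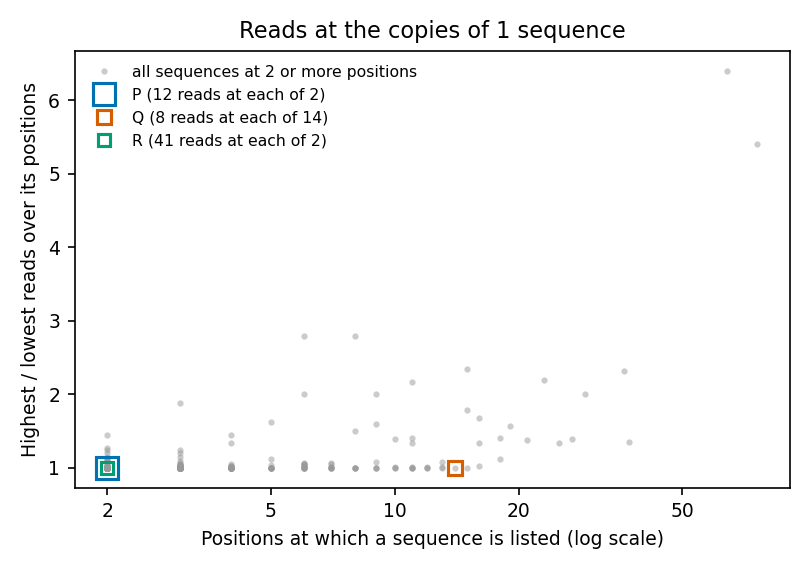
For each of the 262 sequences listed at 2 or more positions, the highest over the lowest read count among its positions (vertical axis, ratio) against the number of positions (log scale). P, Q and R (squares) sit at a ratio of 1, Q at 14 positions, while the ratio of others reached 6.4.

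In the list, copies of the 3 sequences were found in the domain alone. All 18 clusters had an identical copy inside Snhg14, against 30.7% of listed clusters with an identical copy anywhere. By sequence, all 3 were listed more than once, against 262 of the 3560 distinct sequences of the list. Choosing the gene by its number of clusters favours sequences with copies, so these shares and those below are descriptions only. Outside the span the list held no identical copy, no reverse complement and no cluster that shared even 15 bases with P, Q or R. Words of 12 bases were shared with 6 other clusters by P, with 4 by R and with none by Q. All 18 shared a 30-base word with another cluster, against 39.1% of the list, and for each of them that partner was another copy in Snhg14.

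Sequences whose copies stay this close were a minority. Of the 262 sequences listed more than once, 48 (18.3%) had all their copies within 1000 kb on 1 chromosome, and P, Q and R were 3 of these. Q had the most copies of the 48, and the next had 6, on chromosome 9. Most of the 48, 30 in number, had 2 copies, as P and R did.

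By clusters, 14 of 18 (77.8%, Wilson 95% interval 54.8 to 91.0) lay on the Snhg14 strand. Outside exons, clusters in the span of exactly 1 gene, Snhg14 left out, lay on the strand of that gene in 831 of 1636 cases (50.8%, interval 48.4 to 53.2). The intervals cover counting error only and take copies as independent, which those of P, Q and R are not. By sequence, 1 of 3 lay on the Snhg14 strand (33.3%, interval 6.15 to 79.2). By reads, 112 of 218 (51.4%) did, and with each sequence counted once 8 of 61 did. The direction of the majority thus turned with the way of counting. The sequence with the most reads per place, R, was antisense to Snhg14.

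Clusters per 100 kb set Snhg14 beside other long genes. Of 1108 genes spanning at least 200 kb, 497 (44.9%) had a cluster on either strand. Snhg14 had 2.7 clusters per 100 kb, the highest of the 1108, a rank that its choice makes a description only. With each identical sequence counted once it had 0.449 per 100 kb and ranked 150, with 86.5% of these genes below it. Among the 244 genes with a span within 1.5 times its own, Snhg14 included, the others had a median of 1 cluster and at most 9.

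The genes next in density had different sequences at each of their clusters. Filip1l had 5 clusters (2.27 per 100 kb). Cmss1, whose span holds that of Filip1l on the opposite strand, had the same 5 clusters (1.64). Peak1, which encodes a pseudokinase, had 4 (1.84). Gm3383 had 3 (1.5) and Cdc42bpa, which encodes a kinase that acts on the cytoskeleton, had 3 (1.46). For each of these 5 genes the number of distinct sequences equalled the number of clusters, where Snhg14 had 3 distinct sequences in 18 clusters. Repeated sequences were not particular to Snhg14 among long genes: of the 209 with at least 2 clusters, 5 others had one. Gm26573, spanning 872 kb, had 9 clusters from 5 sequences, the most clusters after Snhg14 among these genes. Epha6, which encodes an ephrin receptor, had 4 from 2, and Atrnl1, C130026I21Rik and Dpp10 had 2 from 1 each.

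**Figure D4:**
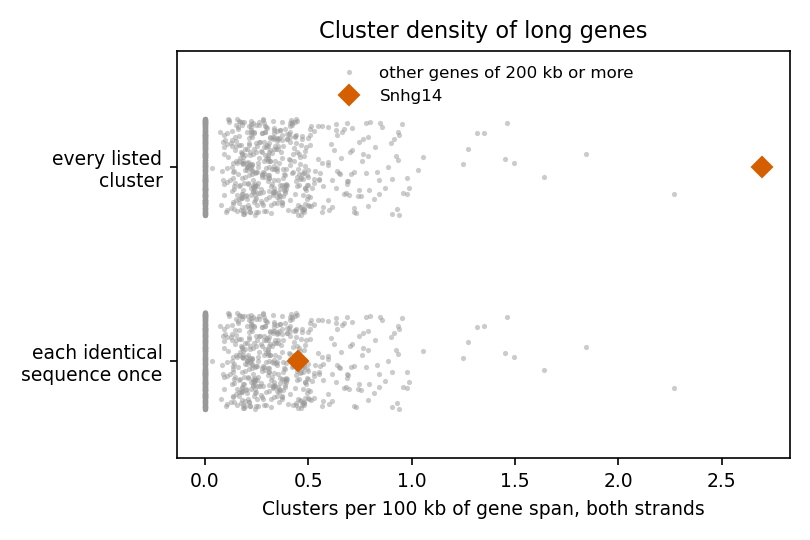
Clusters per 100 kb of gene span on both strands (horizontal axis) for 1108 genes of at least 200 kb, with every listed cluster (top row) or each identical sequence once (bottom row); points are spread vertically at random. Snhg14 (diamond) stands at 2.7 in the top row, above all others, and at 0.449 in the bottom row, among them.

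Around the arrays the domain was empty in the list. Snrpn, which encodes a splicing protein and lies at the 5′ end of the domain (chr7:59982495-60140219), and Snurf within it had 0 clusters on either strand, as did the single snoRNA genes Snord64 and Snord107. Ube3a, which encodes a ubiquitin ligase (chr7:59228750-59311536), had 0, and so had the 3613 bases where it overlaps Snhg14. Ipw, a non-coding RNA between the arrays whose span RefSeq gives on GRCm38, had 0. The paternally expressed genes Ndn, Magel2, Mkrn3 and Peg12, further along the chromosome, had 0 as well. Among longer genes, one without a cluster was usual: of the 1108 genes of at least 200 kb only 44.9% had one. The genes named here are all shorter than that, and the share for genes of like span was not counted.

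Inside Snhg14 the clusters left long stretches empty. The span held no cluster in its last 186 kb, towards Ube3a, in its first 93.1 kb, towards Snrpn, or over 190 kb between the last Q and the first R. The nearest cluster beyond Snhg14 on the Ube3a side lay 105 kb away, at chr7:59202739-59202823 on the plus strand, antisense in Gm44742, with 25 reads and a sequence listed once. On the Snrpn side the nearest was 1490 kb away, at chr7:61468812-61468896 on the plus strand and outside genes, with 8 reads.

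Further along the chromosome beyond Ube3a, Gabrg3, a GABA receptor subunit, had 1 cluster on its strand with 18 reads. Oca2, a melanosome transporter, had 1 on the opposite strand with 9 reads. Gabra5, Atp10a and Herc2 had 0. Of 8 other imprinted non-coding RNAs (Meg3, Rian, Mirg, Kcnq1ot1, Airn, H19, Nespas and Peg13), 0 had a cluster on either strand. These include Rian, which hosts another array of C/D box snoRNAs. Having none was common among longer genes: of the 1108 genes of at least 200 kb 44.9% had a cluster. These 8 RNAs span at most 119 kb, and the share for genes of like span was not counted. The smallest cluster of the list had 2 reads, and the rule by which clusters were kept is not stated in the labels, so reads at these genes that made no listed cluster could not be seen.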

How the data were processed

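PAR-CLIP recovers RNA crosslinked to a protein and sequences it. The submitters' processing notes name bcl2fastq, TopHat2 2.1.0 and build mm10. The authors deposited 1 list with position, strand and sequence per cluster and its read count, not normalized and with no value per library; the cluster caller, its thresholds, the use of control libraries and of reads with several matches, and the depth per library are not stated in the labels or the list. Positions were read as 1-based and set against GENCODE M21 (GRCm38, the assembly of mm10). Members were clusters on chromosome 7 with midpoint inside Snhg14. Members, gene lists and measures were chosen with earlier results of these data known; the exon positions within units, the annotated copy of R, the read equality over copies and the long genes with a repeated sequence were added during the analysis. Named genes were Snhg14, a fixed list of domain, imprinted and marker genes, and the 5 other genes of at least 200 kb with the most clusters per 100 kb. The values of 1 gene on the fixed list are not reported here. snoRNA genes were grouped by shared words of 16 bases. Shared words between clusters were searched on both strands, and the search was tested on simulated copies. Counts were made in Python 3.11.15 with pandas 2.3.3, and Wilson intervals with scipy 1.17.1. No test between groups was possible.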

Additional observations from a re-analysis of the deposited data

How the results depend on the processing

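Of 15 alternative settings, 10 left the value within 1.5 times of the reported one and 5 did not. Overlap by 1 base, whole clusters or the basic transcripts each gave 18 clusters. With only clusters at or above the median of 14 reads, Snhg14 had 2 clusters, both of R, and 0 on its strand. With each identical sequence once it had 3 clusters, 1 on its strand, and 61 reads in place of 218. Words of 20 or 40 bases and limits of 1000 or 5000 bases to a snoRNA gene each gave 18. The limits to a snoRNA gene could hardly give another count, given the spacing of the genes in the arrays. No paired analysis was possible because the list has no column per library, and for the same reason no replicate could be left out. With 8 to 41 reads per cluster and an unknown depth, a copy without a listed cluster does not show a lack of reads.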

Other observations

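The list numbers its clusters, and the numbers rise with position on each strand. From the first to the last copy of Q they run from 93863 to 93897, 35 numbers of which 14 are listed, over 25 repeat units. From the first to the last copy of R, 2 of 23 numbers are listed, and over the whole list 4.01% are. Between neighbouring copies of Q 1 unit apart the numbers were 1 or 2 apart, and at 2 units they were 2 or 3 apart. Numbers not listed thus fell also between copies in adjacent units. At 3 units the numbers were 3 apart, and across the step of 6 units they were 10 apart. What the numbers that are not listed stand for is not stated in the labels or the list.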
